A study of Sus scrofa with 12 samples.

Results

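The genes that carry acetyl-CoA to cholesterol, the regulators that set their transcription through the sterol regulatory element binding proteins (SREBPs), and the genes that move sterol out of cells were described across 6 pig ovaries. The members were taken by symbol from a gene table of 29884 names. Of 36 listed symbols 34 had a row. IDI1 was not analysed here, and the lanosterol demethylase was listed as CYP51 and not as CYP51A1. The 34 genes fell into 3 of the acetyl-CoA to mevalonate steps, 5 of the isoprenoid steps, 3 of the squalene steps, 9 of the sterol steps, 7 SREBP regulators and 7 genes of sterol efflux and its control. The 20 genes of the 4 enzyme groups are called synthesis enzymes here.

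The study compared ovaries of sows with small (SLS) and large (LLS) litters, with group means of 8.48 and 16.19 piglets per litter. ZD2, ZD3 and ZD12 are SLS ovaries and ZD5, ZD7 and ZD8 are LLS ovaries. Each was the left ovary of a commercial sow of parity 4, taken 4 days after delivery. The labels name no treatment, breed or age. A whole ovary holds several cell types in unknown proportions, so fewer cells of a type and less RNA per cell cannot be told apart in these libraries.

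Cells of the corpus luteum turn cholesterol into progesterone, and they obtain it from lipoproteins or make it themselves. When sterol in the endoplasmic reticulum is low, SCAP escorts the SREBP precursors to the Golgi, where the proteases encoded by MBTPS1 and MBTPS2 release the transcription factors that raise the synthesis enzymes. When sterol is high, INSIG proteins hold SCAP back, and oxysterols activate the liver X receptors (NR1H2 and NR1H3), which raise the efflux pumps ABCA1 and ABCG1 and the ubiquitin ligase MYLIP.

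Sequences upstream of the transcription start are shown for 3 members on which the results below turn. HMGCS1 holds a match to the sterol regulatory element that SREBPs bind. TM7SF2 encodes a reductase of the sterol ring, and DHCR7 encodes a reductase that makes cholesterol from its direct precursor. Each line gives the 250 bases before the start of the longest annotated transcript, read 5′ to 3′ on the strand of the gene (RefSeq annotation of Sscrofa11.1). Capitals mark TCACNCCAC, the sterol regulatory element as searched here, and CCAAT, the box bound by NF-Y, each on either strand.
HMGCS1 (minus strand, chr16:27957262-27957511): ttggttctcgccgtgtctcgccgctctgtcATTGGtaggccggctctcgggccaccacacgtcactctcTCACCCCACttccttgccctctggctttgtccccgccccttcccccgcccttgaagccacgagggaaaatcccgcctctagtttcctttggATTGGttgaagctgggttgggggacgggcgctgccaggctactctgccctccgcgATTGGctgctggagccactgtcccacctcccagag
TM7SF2 (minus strand, chr2:7081503-7081752): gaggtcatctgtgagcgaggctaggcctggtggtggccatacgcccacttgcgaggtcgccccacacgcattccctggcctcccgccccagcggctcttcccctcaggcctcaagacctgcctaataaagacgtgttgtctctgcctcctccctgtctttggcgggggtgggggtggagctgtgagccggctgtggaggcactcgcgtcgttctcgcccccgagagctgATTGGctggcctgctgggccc
DHCR7 (plus strand, chr2:2377102-2377351): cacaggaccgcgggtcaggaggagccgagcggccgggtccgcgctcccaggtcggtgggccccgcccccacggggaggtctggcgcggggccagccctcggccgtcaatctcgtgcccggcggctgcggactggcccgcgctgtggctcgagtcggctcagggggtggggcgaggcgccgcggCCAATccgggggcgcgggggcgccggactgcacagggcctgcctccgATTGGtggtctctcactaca
The window searched in all genes ran from 250 bases before to 50 bases after the start. The sterol regulatory element was present in 2 of the 34 member windows and in 171 of 20638 windows of protein-coding genes (0.829%). In HMGCS1 the match began 181 bases before the start with the letters TCACCCCAC. CCAAT was present in 20 of the 34 member windows and in 35.0% of all windows. The element TCACNTGA was present in the window of INSIG1 alone among the members and in 3.61% of all windows. In no member window did matches to different motifs share a base. These matches describe letters in a window, and binding was not measured.

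The gene libraries held between 32272803 (ZD8) and 60903268 (ZD2) reads, and values are given as FPKM, fragments scaled by transcript length and library size. This scale accounts for transcript length but not for GC content, so levels of genes that differ in GC content are compared with that limit (described below). ZD8 stood apart from the other libraries in its cell type markers. The summed level of 6 luteal markers was between 9167 and 12191 FPKM in the other 5 ovaries and 123 FPKM in ZD8, where each of the 6 was at its lowest. STAR, which brings cholesterol into the mitochondrion, was at 26.4 FPKM in ZD8 and at 2542 to 5418 FPKM elsewhere. The summed level of 7 oocyte markers was 123 FPKM in ZD8 and 6.27 to 22.5 FPKM elsewhere, and that of the theca markers CYP17A1 and INSL3 was 415 against 9.31 to 74.4 FPKM. The 4 endothelial markers summed to 106 FPKM in ZD8 and to 236 to 359 FPKM elsewhere. The 5 granulosa markers summed to 127 FPKM in ZD8 and to 172 to 768 FPKM elsewhere, a sum carried by INHA (66.4 FPKM in ZD8 and 162 to 726 FPKM elsewhere). FSHR, AMH and FOXL2 were at their highest in ZD8, with 10.8, 12.01 and 37.8 FPKM, and CYP19A1 was at 0 in 5 of the 6 ovaries. Values for stroma (1797 to 6364 FPKM elsewhere), smooth muscle (310 to 1771 FPKM) and macrophage markers (16.2 to 28.4 FPKM) were 2921, 892 and 33.7 FPKM in ZD8. The luteal markers were low in the ovary where most synthesis enzymes were lowest, and their part in the results was not tested.

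Expression of the synthesis enzymes was high in 5 of the 6 ovaries. Summed over the 20 enzymes it was 2106, 2334 and 1037 FPKM in ZD2, ZD3 and ZD12, and 2884, 3009 and 234 FPKM in ZD5, ZD7 and ZD8. ZD12 was the lowest of the SLS ovaries, and ZD8 was lower still, while ZD5 and ZD7 were above every SLS ovary. As a share of all FPKM in the library, the enzymes took 0.543%, 0.650% and 0.252% in the SLS ovaries and 0.765%, 0.803% and 0.059% in the LLS ovaries. The order ZD8 lowest and ZD12 next held in 16 of the 20 enzymes and 18 of the 34 members, compared with 5.63% of all genes tested. After the correction for GC content described below, it held in 16 of the 20 enzymes, 20 of the 34 members and 16.4% of all genes. ZD12 did not share the low luteal level of ZD8, as its 6 luteal markers summed to 9167 FPKM. ZD12 had the level nearest to that of ZD8 in some markers of other cells. Its theca markers summed to 74.4 FPKM (at most 18.9 FPKM in the other 4 ovaries), its oocyte markers to 22.5 FPKM (at most 11.9 FPKM), and of the granulosa markers AMH was at 7.21 FPKM (at most 1.82 FPKM) and FOXL2 at 30.6 FPKM (at most 13.8 FPKM). INHA, the most abundant granulosa marker, went the other way, highest in ZD12 (726 FPKM) and lowest in ZD8 (66.4 FPKM). Their part in the enzyme levels of ZD12 was not tested.

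**Figure D1:**
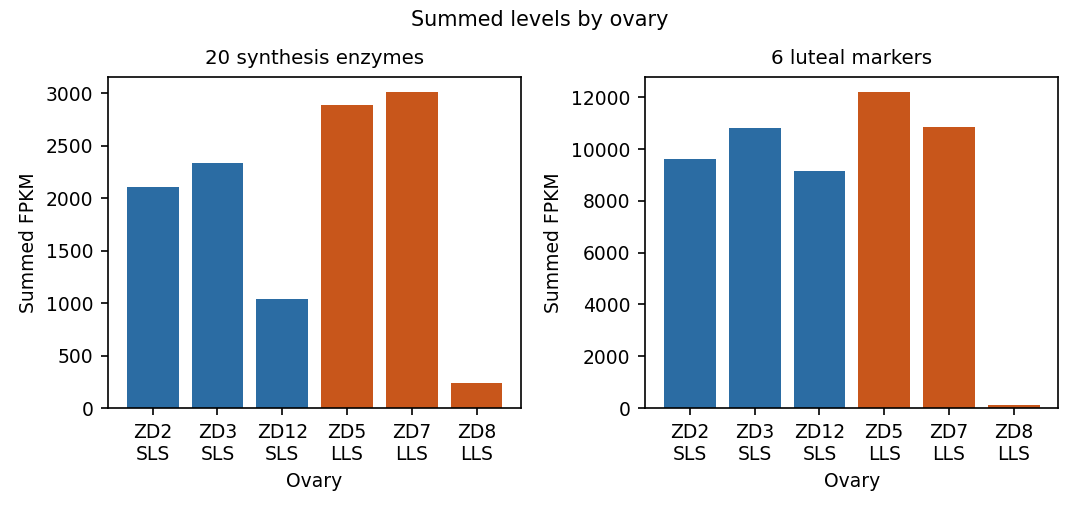
Summed FPKM of the 20 synthesis enzymes (left) and of 6 luteal markers (right) in each ovary, with SLS ovaries in blue and LLS ovaries in orange; each bar is 1 library and both axes start at 0. The enzymes summed to 1037 FPKM in ZD12 and 234 FPKM in ZD8, while the luteal markers were at 9167 FPKM in ZD12 and 123 FPKM in ZD8.

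Between LLS and SLS ovaries, no member passed the test. By limma, 0 of the 34 members and 0 of 12260 genes tested (0%) passed an adjusted p of 0.05 with an absolute log2 fold change over 1. The adjusted p of each member was 0.999 by limma, and over all genes the smallest was 0.860. At an unadjusted p under 0.05, limma gave 0 members and 216 genes (1.76%), and edgeR on reads recovered from the FPKM values gave 220 genes, 0 of all genes being called. The values of the 3 SLS and 3 LLS ovaries did not overlap for 1 of 34 members, LBR, and for 628 of the genes tested (5.12%). The median log2 fold change over the members was -0.15, and it was 0.02 over all genes. Of the members, 12 of 34 were higher in LLS, compared with 52.6% of all genes. By edgeR or DESeq2 13 members had the opposite sign, with array weights 21 did, and without ZD8 23 did.

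**Figure D2:**
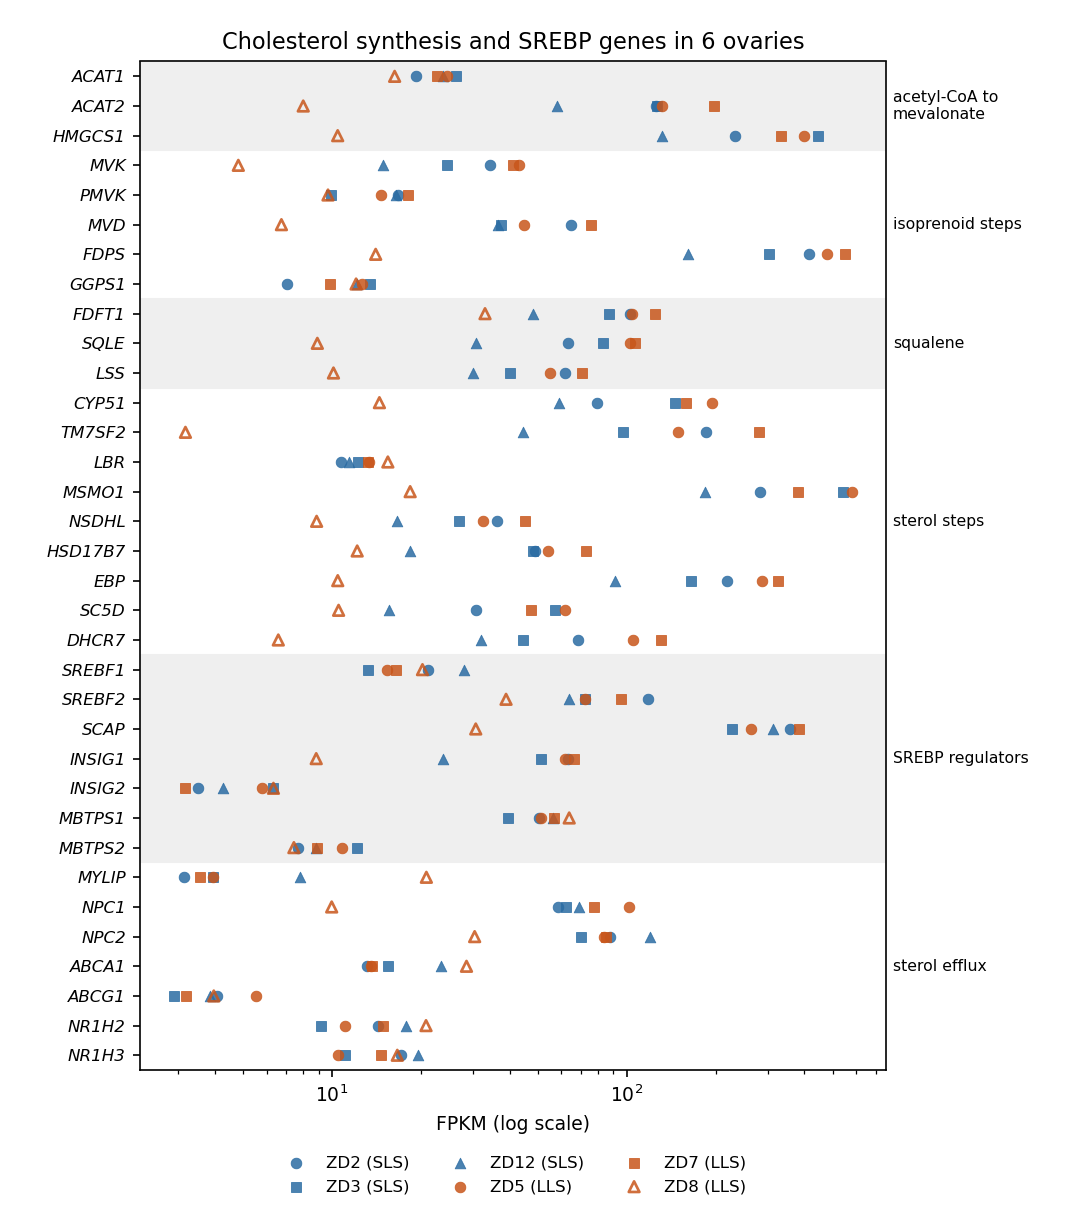
FPKM of the 34 members (log scale) in the 3 SLS ovaries (blue) and the 3 LLS ovaries (orange), 1 point per library, ordered by pathway step. The open triangle (ZD8) is the lowest point in 24 of 34 members, and the blue triangle (ZD12) is next above it in 18 of them.

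In the steps from acetyl-CoA to mevalonate, the cytosolic genes varied widely and the mitochondrial gene did not. HMGCS1, the cytosolic HMG-CoA synthase (chr16:27936225-27957261, minus strand, 11 exons), was at 232, 446 and 132 FPKM in ZD2, ZD3 and ZD12 and at 398, 334 and 10.4 FPKM in ZD5, ZD7 and ZD8. ZD8 was 12.6 times lower than the lowest other ovary, and the groups overlapped. LLS over SLS had a log2 fold change of -1.06 ± 1.25 (SE, n = 3 and 3; adjusted p = 0.999 by limma), and it was 0.61 ± 0.45 without ZD8 (adjusted p = 0.9996 by limma). ACAT2, the cytosolic thiolase that joins acetyl-CoA units for sterol synthesis, was at 126, 126 and 58.0 FPKM in the SLS ovaries and at 131, 198 and 7.98 FPKM in the LLS ovaries. ZD5 and ZD7 were above each SLS ovary, and ZD8 was 7.26 times lower than the lowest other ovary. Its log2 fold change was -0.67 ± 1.04, and 0.72 ± 0.37 without ZD8. The gene span of ACAT2 overlaps that of TCP1 on the other strand, and TCP1 was between 62.0 and 93.9 FPKM. The strand setting of the authors' counting was not given in the sources used here, so reads in the overlap may belong to either gene. ACAT1, the mitochondrial thiolase of ketone body metabolism, was at 19.3, 26.3 and 23.9 FPKM in the SLS ovaries and 24.6, 22.6 and 16.3 FPKM in the LLS ovaries. Its values differed by 1.61 times at most over all 6 ovaries. ACAT1 had a log2 fold change of -0.13 ± 0.27, and 0.04 ± 0.24 without ZD8.

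Among the isoprenoid steps, FDPS had the highest median level of all members, 359.5 FPKM. MSMO1 of the sterol steps was above FDPS in ZD3, ZD12, ZD5 and ZD8. FDPS makes farnesyl diphosphate, from which squalene and prenyl groups are built. It was at 416, 303 and 162 FPKM in ZD2, ZD3 and ZD12 and at 476, 551 and 14.1 FPKM in ZD5, ZD7 and ZD8. ZD5 and ZD7 were the highest ovaries, and ZD8 was 11.5 times lower than ZD12. FDPS had a log2 fold change of -0.79 ± 1.26, and 0.90 ± 0.40 without ZD8 (adjusted p = 0.820 by limma). MVK, the mevalonate kinase, had the same order of ovaries at the bottom, with 34.4, 24.5 and 14.9 FPKM in the SLS ovaries and 43.0, 41.2 and 4.81 FPKM in the LLS ovaries. Its log2 fold change was -0.14 ± 0.75, and 0.83 ± 0.33 without ZD8 (adjusted p = 0.719 by limma). MVD, which decarboxylates mevalonate diphosphate, was at 64.6, 37.4 and 36.5 FPKM in the SLS ovaries and at 44.9, 75.8 and 6.73 FPKM in the LLS ovaries. PMVK, the kinase between MVK and MVD, varied less, from 9.94 to 16.7 FPKM in SLS and from 9.69 to 18.2 FPKM in LLS, and its span overlaps that of KCNN3 on the same strand. GGPS1, which extends farnesyl diphosphate to the geranylgeranyl group used on proteins, was at 7.06 to 13.4 FPKM in SLS and 9.83 to 12.7 FPKM in LLS. GGPS1 and LBR were the enzymes for which ZD8 was not the lowest ovary.

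The 3 squalene enzymes had 1 order of ovaries at the bottom, ZD8 and then ZD12, and ZD7 was the highest ovary for each. SQLE, the squalene epoxidase that introduces the oxygen of the sterol, was at 63.1, 82.7 and 30.8 FPKM in ZD2, ZD3 and ZD12 and at 102, 106 and 8.91 FPKM in ZD5, ZD7 and ZD8. For SQLE the log2 fold change was -0.21 ± 0.88, and 0.92 ± 0.38 without ZD8 (adjusted p = 0.752 by limma). FDFT1, the squalene synthase, was the most abundant gene of this group, with 103, 86.9 and 48.0 FPKM in the SLS ovaries and 104, 124 and 33.0 FPKM in the LLS ovaries. ZD8 was 1.45 times lower than ZD12 for FDFT1, a smaller gap than the 3.45 times of SQLE. LSS, the cyclase that forms lanosterol and lies on an unplaced scaffold of the assembly, was at 61.4, 40.3 and 30.1 FPKM in the SLS ovaries and at 54.96, 70.5 and 10.1 FPKM in the LLS ovaries. The log2 fold changes of FDFT1 and LSS were 0.00 ± 0.54 and -0.28 ± 0.67, and 0.59 ± 0.33 and 0.55 ± 0.31 without ZD8.

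The sterol steps held the widest spread and the member with the smallest p without ZD8. TM7SF2 (chr2:7076778-7081502, minus strand, 10 exons), a reductase of the sterol ring, was at 186, 97.0 and 44.4 FPKM in ZD2, ZD3 and ZD12 and at 150, 281 and 3.18 FPKM in ZD5, ZD7 and ZD8. ZD8 was 13.96 times lower than the lowest other ovary, the largest such gap among the 34 members. LBR (chr10:13389896-13416831, minus strand, 14 exons), a nuclear envelope protein with the same reductase activity, was at 10.8, 12.2 and 11.4 FPKM in the SLS ovaries and at 13.4, 13.3 and 15.5 FPKM in the LLS ovaries. All 3 LLS values of LBR lay above all 3 SLS values. The log2 fold change of LBR was 0.27 ± 0.24 (higher in 3 of 3 LLS ovaries; unadjusted p = 0.294 and adjusted p = 0.999 by limma), or 0.20 ± 0.23 without ZD8, and its exact two-sided permutation p was 0.1, the smallest that 3 against 3 ovaries can give. For TM7SF2 the log2 fold change was -0.74 ± 1.41, and 1.13 ± 0.52 without ZD8 (adjusted p = 0.858 by limma).

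DHCR7 (chr2:2377352-2391846, plus strand, 9 exons), which reduces the direct precursor to cholesterol, was at 68.0, 44.5 and 32.04 FPKM in ZD2, ZD3 and ZD12 and at 105, 130 and 6.57 FPKM in ZD5, ZD7 and ZD8. The LLS ovaries held both the highest and the lowest value, and the log2 fold change was 0.01 ± 0.98. Without ZD8 it was 1.33 ± 0.32 (95% confidence interval 0.61 to 2.05; unadjusted p = 0.00219 and adjusted p = 0.217 by limma). EBP, the sterol isomerase, was at 218, 165 and 91.0 FPKM in the SLS ovaries and at 288, 326 and 10.5 FPKM in the LLS ovaries. CYP51, which removes the methyl group from lanosterol, was at 79.3, 146 and 58.9 FPKM in the SLS ovaries and at 194, 159 and 14.5 FPKM in the LLS ovaries. For both genes ZD5 and ZD7 were above each SLS ovary and ZD8 was below each of them. Their log2 fold changes were -0.54 ± 1.17 and -0.18 ± 0.90, and without ZD8 1.04 ± 0.37 and 0.99 ± 0.37 (adjusted p = 0.567 and 0.628 by limma). MSMO1, which begins the removal of the remaining methyl groups, was the most abundant gene of this group, at 284, 540 and 184 FPKM in the SLS ovaries and 579, 382 and 18.4 FPKM in the LLS ovaries. ZD3 lay between ZD5 and ZD7 here, so these ovaries were mixed between the groups. NSDHL and HSD17B7, the other enzymes of this demethylation, were between 16.7 and 36.1 FPKM and between 18.3 and 48.7 FPKM in SLS, and between 8.86 and 45.2 FPKM and between 12.2 and 72.7 FPKM in LLS. SC5D, the desaturase before DHCR7, was between 15.6 and 57.1 FPKM in SLS and between 10.5 and 61.5 FPKM in LLS, and a long noncoding RNA overlaps its span on the other strand.

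Without ZD8, all 20 synthesis enzymes were higher in LLS, compared with 34.2% of all genes tested. The same 20 were higher by edgeR, by DESeq2, with median centring and with correction for GC content, all without ZD8. The median log2 fold change over the enzymes was 0.67, and it was -0.10 over all genes. ZD12 stayed in the SLS group. Of the ovaries left, ZD12 was the lowest for 16 of the 20 enzymes and for 8.59% of all genes tested. No fit left out both ZD8 and ZD12, so the part of ZD12 in the direction of the enzymes was not tested. This contrast holds 2 LLS ovaries, and 0 of the 34 members and 20 of 11985 genes (0.167%; 14 higher and 6 lower in LLS) were called by limma. At an unadjusted p under 0.05 and higher in LLS, there were 6 of 34 members (MVK, FDPS, SQLE, CYP51, EBP and DHCR7) and 3.2% of all genes. The values of ZD5 and ZD7 lay above all 3 SLS ovaries for 11 of 34 members and for 7.53% of all genes. They lay below all 3 SLS ovaries for 0 of 34 members and for 11.5% of all genes. The 11 were ACAT2, MVK, FDPS, FDFT1, SQLE, CYP51, LBR, HSD17B7, EBP, DHCR7 and NPC1. DESeq2 on the recovered reads without ZD8 called 1 member higher in LLS, DHCR7 (log2 fold change 1.35, adjusted p = 0.036 by DESeq2), and 1.11% of all genes. By edgeR on the same reads 0 genes were called. In the same contrast, 9 of 31 cell type markers tested had an unadjusted p under 0.05 by limma, compared with 709 of 11985 genes, and 0 of the markers were called. Lower in LLS were the smooth muscle markers TAGLN, ACTA2, DES and MYH11 (log2 fold changes of -1.33, -1.21, -0.95 and -0.84), INHA and FOXL2 of the granulosa (-1.30 and -1.08) and the stromal marker DCN (-0.82). The luteal markers did not go 1 way, with LHCGR lower (-0.92) and PTGFR higher (0.79). STAR and SCARB1 were also higher (0.61 and 0.47), and CYP11A1 and HSD3B1 were slightly lower (-0.10 and -0.12). The luteal markers summed to 12191 and 10859 FPKM in ZD5 and ZD7 and to 9167 to 10808 FPKM in the SLS ovaries. The sum of ZD7 was thus close to that of the highest SLS ovary. The part of these cells in the contrast was not tested. The enzymes share regulators and cells, so their common direction does not count as 20 independent observations.

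**Figure D3:**
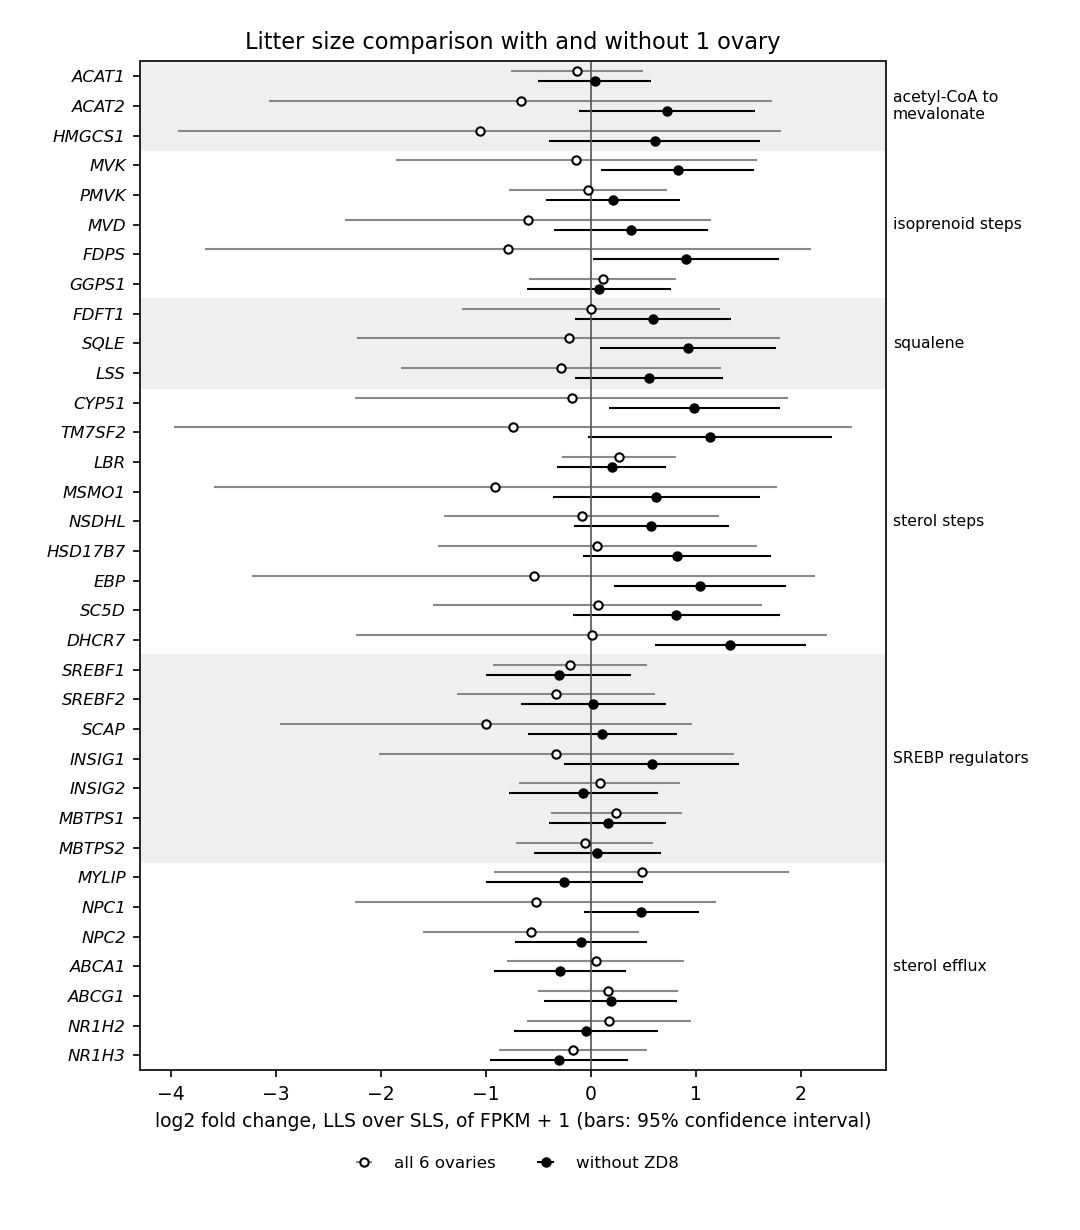
Log2 fold change of LLS over SLS with its 95% confidence interval from limma for each member, with all 6 ovaries (open, 3 against 3) and without ZD8 (filled, 3 SLS against 2 LLS). With 6 ovaries every interval includes 0, and without ZD8 the 20 synthesis enzymes lie to the right of 0, with 6 intervals (MVK, FDPS, SQLE, CYP51, EBP and DHCR7) above it.

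The base composition of the transcripts moved with differences between ovaries of 1 group. Of the members whose longest transcript has under 45% G and C, 8 of 8 were higher in ZD3 than in ZD2, and of those over 55%, 0 of 15 were, although both ovaries are SLS. Across the 34 members the log2 difference of ZD3 and ZD2 had a Pearson r of -0.94 with GC content, and across 12250 genes of all kinds r was -0.81. Between the LLS ovaries ZD5 and ZD7, r was -0.70 over the members and -0.60 over all genes. These correlations are across genes of the same libraries, and genes are not independent replicates. When the trend over GC content was removed from each library, a step added after the data were seen, ZD5 and ZD7 lay above all 3 SLS ovaries for 23 of 34 members and 17% of all genes. Of the synthesis enzymes, 19 of 20 were among these 23, GGPS1 being the exception. The median log2 fold change of the enzymes without ZD8 was then 0.75, and it was -0.02 over all genes. At an unadjusted p under 0.05 and higher in LLS, limma then gave 7 of 34 members (MVK, PMVK, SQLE, CYP51, EBP, DHCR7 and NPC1) and 7.86% of all genes, and the smallest adjusted p of a member was 0.144, for DHCR7. With 6 ovaries after this correction, ZD8 was the lowest ovary for 24 of 34 members, compared with 38.2% of all genes.

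**Figure D4:**
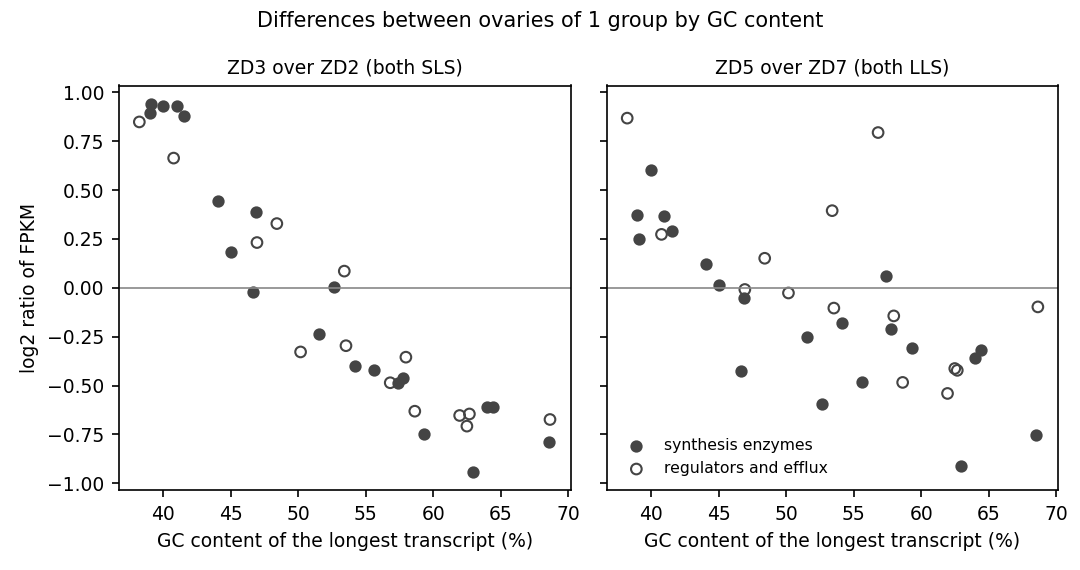
Log2 ratio of FPKM between 2 ovaries of 1 group (left ZD3 over ZD2, right ZD5 over ZD7) against the GC content of the longest transcript in percent, 1 point per member, filled for synthesis enzymes and open for regulators and efflux genes. On the left, the 8 members under 45% GC lie above 0 and the 15 members over 55% lie below 0.

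Of the SREBP regulators, SCAP and INSIG1 had the widest spread, with 12.4 and 7.52 times between the highest and lowest ovary, and the other 5 had 1.62 to 3.04 times. SCAP, the sterol sensor and escort, was the most abundant gene of this group and had the smallest p in it, with 356, 227 and 313 FPKM in ZD2, ZD3 and ZD12 and 263, 382 and 30.7 FPKM in ZD5, ZD7 and ZD8. ZD8 was 7.38 times lower than the lowest other ovary, while ZD12 was within the range of the others. The log2 fold change of SCAP was -0.999 ± 0.85 (unadjusted p = 0.276 and adjusted p = 0.999 by limma), and 0.11 ± 0.32 without ZD8. INSIG1, which retains SCAP and is itself raised by SREBPs, was at 63.0, 51.3 and 23.8 FPKM in the SLS ovaries and at 61.8, 66.4 and 8.84 FPKM in the LLS ovaries. It shared the order of the enzymes, with ZD8 lowest and ZD12 next. INSIG2, the other retention protein, was between 3.51 and 6.32 FPKM in SLS and between 3.16 and 6.33 FPKM in LLS, and its symbol is shared with a pseudogene locus.

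SREBF2, the SREBP gene linked mainly to cholesterol synthesis, was at 118, 72.4 and 63.7 FPKM in ZD2, ZD3 and ZD12 and at 72.0, 95.9 and 38.9 FPKM in ZD5, ZD7 and ZD8. SREBF1, linked mainly to fatty acid synthesis, was at 21.2, 13.3 and 28.1 FPKM in the SLS ovaries and 15.4, 16.5 and 20.3 FPKM in the LLS ovaries. ZD8 was the lowest ovary for SREBF2 and was within the range of the others for SREBF1. Their log2 fold changes were -0.33 ± 0.41 and -0.20 ± 0.32, and 0.02 ± 0.31 and -0.31 ± 0.31 without ZD8. The protease genes MBTPS1 and MBTPS2 were between 39.5 and 63.7 FPKM and between 7.42 and 12.1 FPKM over all 6 ovaries. ZD8 was the highest ovary for MBTPS1 and the lowest for MBTPS2. Over the 7 regulators the median log2 fold change was -0.20 with 6 ovaries and 0.06 without ZD8.

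In ZD8 the ratios between genes with related roles lay outside the range of the other ovaries, for some pairs by little. The pairs were chosen after the values were seen, and no test was made. The ratio of TM7SF2 to LBR was 17.3, 7.93 and 3.88 in ZD2, ZD3 and ZD12 and 11.2, 21.2 and 0.206 in ZD5, ZD7 and ZD8. In 5 ovaries TM7SF2 was therefore the more abundant of these reductase genes, and in ZD8 LBR was. The ratio of ACAT2 to ACAT1 was 6.52, 4.81 and 2.43 in the SLS ovaries and 5.33, 8.75 and 0.490 in the LLS ovaries. It too was below 1 in ZD8 alone. The ratio of FDPS to GGPS1 was 13.3 to 59.0 in 5 ovaries and 1.17 in ZD8, that of INSIG1 to INSIG2 was 5.56 to 21.0 and 1.40, and that of SCAP to SREBF2 was 3.02 to 4.91 and 0.789. The ratio of SREBF2 to SREBF1 was 5.58, 5.45 and 2.27 in the SLS ovaries and 4.67, 5.81 and 1.92 in the LLS ovaries, so that ZD12 and ZD8 lay apart from the other 4. In 2 pairs ZD8 was instead the highest, with a ratio of NPC2 to NPC1 of 3.05 against 0.825 to 1.73 elsewhere and a ratio of ABCA1 to ABCG1 of 7.197 against 2.45 to 6.10. The genes of several pairs differ in GC content, for example 62.9% for TM7SF2 and 45% for LBR, and its part in the ratios was not tested.

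**Figure D5:**
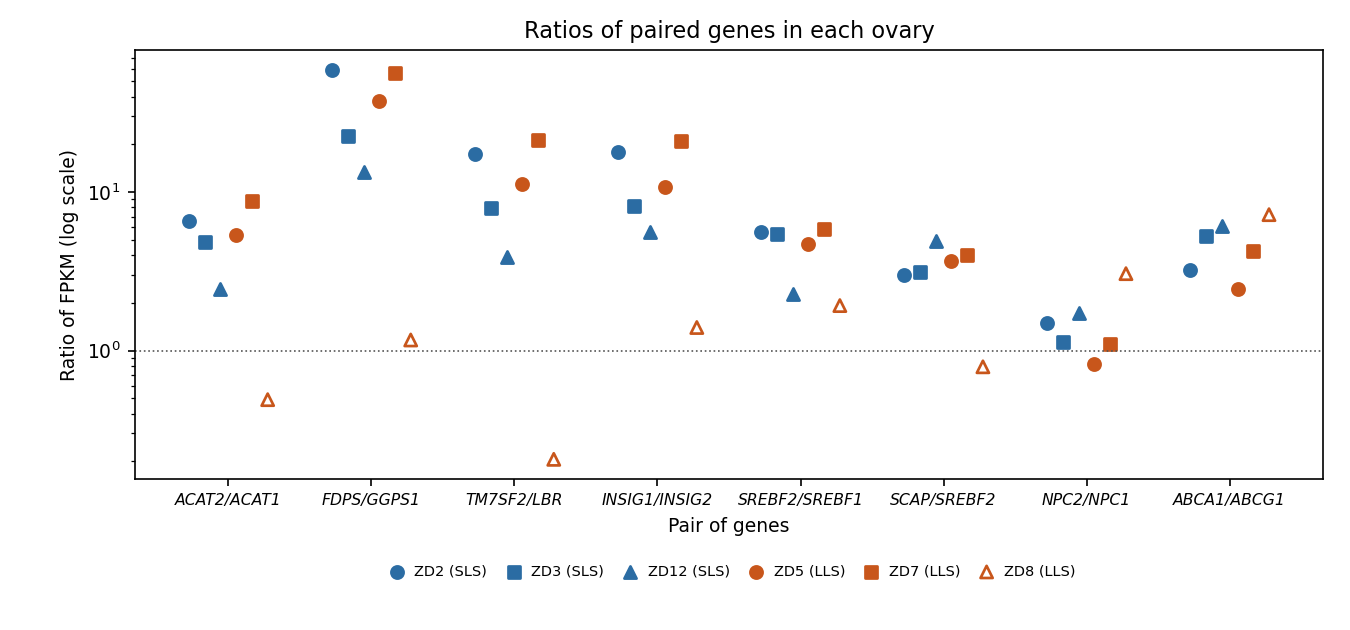
Ratio of FPKM (log scale) of 8 pairs of genes in each ovary, SLS in blue and LLS in orange, with a dotted line at 1 and the open triangle for ZD8. The ZD8 ratio lies below all others in 6 pairs and above them for NPC2 to NPC1 and ABCA1 to ABCG1, and it is below 1 for ACAT2 to ACAT1, TM7SF2 to LBR and SCAP to SREBF2.

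The genes of sterol efflux and its control did not share the order of the enzymes, with ZD8 lowest for 2 of 7 and highest for 3 of 7, shares close to the 26.3% and 44.6% of all genes tested. NPC2, which hands cholesterol to NPC1 in the lysosome, was the most abundant gene of this group and had the smallest p of all members, with 87.4, 69.6 and 119 FPKM in ZD2, ZD3 and ZD12 and 83.5, 85.1 and 30.5 FPKM in ZD5, ZD7 and ZD8. The log2 fold change of NPC2 was -0.57 ± 0.45 (unadjusted p = 0.238 and adjusted p = 0.999 by limma), and -0.09 ± 0.28 without ZD8. NPC1, which exports cholesterol from the lysosome, was at 58.4, 62.0 and 69.1 FPKM in the SLS ovaries and at 101, 77.1 and 9.97 FPKM in the LLS ovaries. ZD5 and ZD7 were above all SLS ovaries and ZD8 was 5.86 times below the lowest other ovary. The span of NPC1 overlaps that of C6H18orf8 on the other strand. MYLIP, the ligase that marks lipoprotein receptors for degradation, was highest in ZD8, with 3.15, 3.95 and 7.81 FPKM in the SLS ovaries and 3.95, 3.55 and 20.9 FPKM in the LLS ovaries. ZD8 was 2.67 times above the highest other ovary and ZD12 was next. ABCA1, the pump that loads cholesterol onto apolipoproteins, had the same 2 ovaries at the top, with 13.2, 15.5 and 23.5 FPKM in the SLS ovaries and 13.5, 13.6 and 28.6 FPKM in the LLS ovaries. With ZD8 set aside, ZD12 was the highest ovary for 5 of the 7 genes. It was also the highest for 4858 of the 12260 genes tested, so this order is common among all genes. ABCG1, the pump that loads mature particles, was between 2.92 and 5.52 FPKM in all ovaries. The liver X receptors NR1H2 and NR1H3 were between 9.15 and 20.8 FPKM and between 10.5 and 19.5 FPKM, and the span of NR1H3 overlaps those of MADD and ACP2. The median log2 fold change over this group was 0.05 with 6 ovaries and -0.09 without ZD8, and 0 of the 7 had an unadjusted p under 0.05 by limma in either fit.

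Other genes of lipid metabolism, given by list, had 0 members called with 6 ovaries or without ZD8 by limma. For 9 genes of fatty acid synthesis and desaturation, the median log2 fold change was -0.54, and 0.23 without ZD8 with 8 of 9 higher in LLS. ZD8 was the lowest ovary for 8 of these 9. ME1, which supplies NADPH, was at 38.9, 59.9 and 49.6 FPKM in the SLS ovaries and at 56.5, 51.9 and 4.13 FPKM in the LLS ovaries. FASN, the fatty acid synthase, was at 231, 133 and 103 FPKM in the SLS ovaries and at 101, 181 and 44.1 FPKM in the LLS ovaries. Of 10 users of isoprenoids, led by COQ2 and RABGGTB with log2 fold changes of 0.21 ± 0.24 and -0.17 ± 0.26, ZD8 was the lowest ovary for 1 and the median was -0.02, and -0.05 without ZD8. Of the sterol-regulated degradation list 6 of 7 genes had a row and 5 were tested, with a median of -0.02, and -0.08 without ZD8, and RNF145 had a log2 fold change of -0.12 ± 0.25. Of 5 sterol carriers the median was -0.07, and 0.41 without ZD8, and OSBP and SCP2 had log2 fold changes of -0.45 ± 0.33 and 0.28 ± 0.30. Of 5 partners and targets of the liver X receptors the median was -0.14, and -0.02 without ZD8, and LPCAT3 had a log2 fold change of -0.21 ± 0.44. STARD4 and TMEM97, 2 sterol carriers chosen after their values were seen, were lowest in ZD8. ZD12 was next for TMEM97, as for most enzymes, while for STARD4 ZD2 was. STARD4 was at 7.84, 33.6 and 8.11 FPKM in the SLS ovaries and at 47.2, 30.4 and 0.587 FPKM in the LLS ovaries. TMEM97 was at 255, 270.0 and 147 FPKM in the SLS ovaries and at 509, 616 and 112 FPKM in the LLS ovaries. Without ZD8, DESeq2 on the recovered reads called TMEM97 higher in LLS (log2 fold change 1.39, adjusted p = 0.016 by DESeq2), and limma and edgeR did not. The same DESeq2 fit called 1.11% of all genes higher in LLS. Because gene and contrast were chosen after the values were seen, this p-value is a description and not a test.

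An intron of SREBF1 holds miR-33b, a miRNA known to repress ABCA1, and it was measured in the small RNA libraries. Its mature 5p and 3p forms, with the seed (bases 2 to 8) in capitals, lie in intron 16 of SREBF1 on the plus strand of chromosome 12, at chr12:60749074-60749093 and chr12:60749110-60749131 of Sscrofa11.1.
miR-33b-5p: gTGCATTGctgttgcattgc
miR-33b-3p: cAGTGCCTcggcagtgcagccc
The values are reads scaled to the library total (RPM) in libraries of 3537619 to 9854086 reads. For miR-33b-5p they were 11.6, 13.9 and 8.93 RPM in the SLS ovaries and 11.8, 15.9 and 10.01 RPM in the LLS ovaries, each from 49 to 108 reads. The groups overlapped, and the log2 fold change was 0.12 ± 0.43 (adjusted p = 0.997 by limma), and 0.26 ± 0.43 without ZD8. SREBF1, its host, was also within 2.11 times over all 6 ovaries. The 3p form was between 0.460 and 1.70 RPM, from 4 to 10 reads. By limma 0 of 353 miRNAs tested (0%) were called, 0 had an unadjusted p under 0.05, and 0 were called by edgeR.

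Other miRNAs known to repress ABCA1 also overlapped between the groups. miR-144, which marks blood cells too, was at 2136, 498 and 106 RPM in the SLS ovaries and at 283, 358 and 10.6 RPM in the LLS ovaries, with a log2 fold change of -2.20 ± 1.44 (adjusted p = 0.997 by limma) and of -0.60 ± 1.02 without ZD8. ZD2 was the highest ovary and ZD8 the lowest. miR-148a-3p was between 43553 and 71900 RPM and miR-148a-5p between 124 and 208 RPM over the 6 ovaries. miR-27a was between 4559 and 7584 RPM, miR-27b-3p between 7673 and 18615 RPM and miR-27b-5p between 8.06 and 23.0 RPM. miR-26a was between 75829 and 252876 RPM, with ZD8 highest and ZD12 next. miR-145-5p and miR-145-3p had the same order at the top, reaching 7001 and 1987 RPM in ZD8, and miR-758 was lowest in these ovaries, with 5.75 RPM in ZD8 and 15.5 RPM in ZD12. miR-33a and miR-106b were not analysed here.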

How the data were processed

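Total RNA depleted of ribosomal RNA and small RNA were sequenced from each of 6 ovaries. The authors mapped reads to Sscrofa11.1 with HISAT2 and deposited gene values as FPKM, and the small RNA values, deposited under the name TPM, are reads that the authors scaled to the library total (RPM). The counting program, its strand setting and the aligner of the small RNA reads were not given in the sources used here; the labels also name BWA. Whole reads were recovered from FPKM with the longest RefSeq transcript for 23477 of 23564 genes (99.6%, within 0.001 of a whole read), and from RPM for 2618 of 2618 values. All 12 value columns were used, and both tables name them by ovary. The 3 reads that a count of 0 allows equal 0.0246 to 0.0465 FPKM for a transcript of 2000 bases and 0.304 to 0.848 RPM; this covers counting error only.

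In R 4.3.3, limma 3.58.1 with a trended variance was fitted to log2(value + 1) for features of at least 1 FPKM or RPM in at least 3 libraries, without covariates and two-sided, with Benjamini-Hochberg adjustment over all features. A fold change on this scale understates that of low genes. Calls needed an adjusted p below 0.05 together with an absolute log2 fold change above 1. Each ovary is a different sow. All 34 members passed the filter. Every member was named; values per ovary were given for the smallest p, groups without overlap, the most outlying ovary and the most abundant gene of each step. Of each other list the 2 genes of smallest p were named; some genes and sequences are not reported here. The exact permutation test was two-sided. The members and lists were chosen with earlier results of these data known. Alternatives were another pseudocount, no filter, median centring, quantile normalization, an equal sum per library, no variance trend, array weights, edgeR 4.0.16 and DESeq2 1.42.0 on recovered reads, other thresholds, and leaving out each ovary. Correction for GC content (lowess over the GC percent of the longest transcript) and the other fits without ZD8 were added after the data were seen. The fits were tested on simulated data. Gene spans, promoters and overlaps are from RefSeq annotation of Sscrofa11.1, the build of the authors' mapping.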

Additional observations from a re-analysis of the deposited data

How the results depend on the processing

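With 6 ovaries, 0 members were called by any of the alternatives, which were run 1 at a time. The number of genes called was 0 by limma, 20 by DESeq2 and 13 with array weights, and 99 genes passed the fold change threshold at an unadjusted p under 0.05. Leaving out 1 ovary gave 0 to 20 genes, the 20 being without ZD8. Without ZD8, 40 genes were called with GC correction, 12 with median centring, 187 by DESeq2 and 0 by edgeR, and the number of members called was 0 to 1, the 1 being DHCR7 by DESeq2. With array weights the median log2 fold change was 0.77 for the acetyl-CoA to mevalonate steps and -0.27 for sterol efflux and its control.

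The direction of most members depended on ZD8: 23 of 34 changed sign without it, and 31 of 34 changed sign in at least 1 setting. The cause was not tested. Without 1 ovary, fits without ZD8 by other tools included, the log2 fold changes of those that changed sign had these ranges: ACAT1 -0.25 to 0.14, ACAT2 -1.51 to 0.80, HMGCS1 -1.96 to 0.68, MVK -0.63 to 0.93, PMVK -0.25 to 0.33, MVD -1.27 to 0.59, FDPS -1.69 to 1.02, GGPS1 -0.15 to 0.27, FDFT1 -0.35 to 0.67, SQLE -0.79 to 1.003, LSS -0.79 to 0.72, CYP51 -0.84 to 1.06, TM7SF2 -1.91 to 1.28, MSMO1 -1.83 to 0.70, NSDHL -0.54 to 0.67, HSD17B7 -0.42 to 0.90, EBP -1.38 to 1.12, SC5D -0.40 to 0.89, DHCR7 -0.73 to 1.49, SREBF1 -0.48 to 0.037, SREBF2 -0.62 to 0.17, SCAP -1.69 to 0.25, INSIG1 -0.81 to 0.66, INSIG2 -0.072 to 0.34, MBTPS2 -0.19 to 0.15, MYLIP -0.28 to 0.88, NPC1 -1.13 to 0.61, ABCA1 -0.30 to 0.27, ABCG1 -0.0087 to 0.37, NR1H2 -0.079 to 0.38 and NR1H3 -0.40 to 0.0072. For miRNAs the ranges were miR-33b-5p -0.050 to 0.26, miR-148a-5p -0.36 to 0.0071, miR-27b-3p -0.065 to 0.52, miR-27b-5p -0.18 to 0.52, miR-26a -0.29 to 0.57, miR-145-5p -0.66 to 0.50, miR-145-3p -0.73 to 0.10 and miR-758 -1.01 to 0.35.

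Signs also changed with all 6 ovaries in place. With array weights the log2 fold changes were ACAT1 0.048, ACAT2 0.79, HMGCS1 0.77, MVK 0.86, PMVK 0.065, MVD 0.30, FDPS 0.91, SQLE 1.07, LSS 0.55, CYP51 1.11, TM7SF2 1.15, MSMO1 0.76, NSDHL 0.63, EBP 1.05, SREBF2 0.019, INSIG1 0.68, MBTPS2 0.12, MYLIP -0.33, NPC1 0.37, ABCA1 -0.36, NR1H2 -0.19 and miR-26a -0.082. By DESeq2 they were ACAT2 0.18, MVK 0.33, PMVK 0.025, FDPS 0.31, SQLE 0.36, LSS 0.10, CYP51 0.44, TM7SF2 0.46, MSMO1 0.029, NSDHL 0.16, EBP 0.46, INSIG1 0.041 and NPC1 0.091. By edgeR they were ACAT2 0.19, MVK 0.35, PMVK 0.035, FDPS 0.32, SQLE 0.37, LSS 0.11, CYP51 0.45, TM7SF2 0.48, MSMO1 0.041, NSDHL 0.18, EBP 0.48, INSIG1 0.057, NPC1 0.097 and miR-145-5p 0.092. With GC correction they were PMVK 0.015, FDFT1 -0.018 and ABCA1 -0.0088, with median centring FDFT1 -0.020 and DHCR7 -0.017, with quantile normalization HSD17B7 -0.0018 and DHCR7 -0.12, and with a pseudocount of 0.1 DHCR7 -0.033. None of these members was called in any of these fits.

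No paired analysis was possible because the SLS and LLS ovaries come from different sows and their numbers in the labels are not shared between the groups. The 3 ovaries a group with this spread limit what can be called: the limma standard errors of the log2 fold changes reached 1.41 among the members. The lowest value of a member in ZD8 was 3.18 FPKM, for TM7SF2, from 172 reads, and the part of depth was not tested. With 2 LLS ovaries left, the fits without ZD8 have few degrees of freedom.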
